A study of Mus musculus with 6 samples.

Results

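Genes of glycolysis and of the response to low oxygen were followed during partial reprogramming of 4434 cells, which are mouse melanoma cells that carry a Braf mutation. The set was a list of 46 gene symbols: 25 glucose and lactate transporters, glycolytic enzymes and their kinases, and 21 subunits, regulators and targets of the hypoxia-inducible factors (HIF). A gene was measured where the array annotation gave a probe set to that gene alone. On that rule 42 members were tested (22 glycolytic, 20 hypoxic) among 18193 genes in all. Gapdh was covered by 3 array control probe sets that stayed outside the test. Gpi1, Eno1 and Bnip3l were not analysed here. Ero1l carried the current symbol Ero1a.

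All 6 arrays came from cells that held an inducible lentiviral vector for Oct4, Sox2, Klf4 and a blasticidin resistance gene, beside a second vector for the doxycycline-dependent transactivator coupled to mCherry. The 3 + dox arrays were from cells harvested at day 20 of doxycycline, which the methods describe as selected with blasticidin. The 3 − dox arrays were from cells with both vectors that never received doxycycline. The comparison therefore covered doxycycline, selection and the 3 factors together. Whether the 3 arrays of each kind stem from independent cultures was not stated, so the p-values below measure only how far these samples differ, and that spread may be technical. The sources used here give neither oxygen tension nor cell density at harvest.

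Glycolysis turns glucose into pyruvate in the cytosol. Glucose enters through Slc2a transporters, hexokinases trap it, phosphofructokinase sets the pace, and lactate dehydrogenase and Slc16a transporters dispose of the pyruvate as lactate. HIF consists of an oxygen-labile α subunit (Hif1a or Epas1) and a constant β subunit (Arnt). In the presence of oxygen, prolyl hydroxylases of the Egln family mark the α subunit for Vhl, which has it degraded. When oxygen is short, HIF switches on glycolytic genes, its own hydroxylases and a set of stress genes, and melanoma cells are known for both high lactate production and HIF activity in normal air.

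Values are log2 expression values, so a difference of 1 is a doubling, and changes are + dox minus − dox. A gene was called where the limma p-value, adjusted over all genes, was under 0.05. By that rule 4.87% of all genes were called (3.07% higher and 1.8% lower in + dox cells), and in 26.9% the values of the groups did not overlap. Arrays + dox 1 and − dox 1 stood apart from the others of their group. On the first principal component, which separated the groups, + dox 1 lay at 10.5 against 41.9 and 54.4. On the next, − dox 1 lay at −40.7 against 19.1 and 19.3 for the other − dox arrays. Without both of these arrays, 20.1% of all genes were called. Both were picked out in these same values, and leaving them out narrows the spread within the groups by itself. As to the cell type, Tyr and Mlana, defining melanocyte genes, lay between 3.31 and 3.69 in every array, below each array's lower quartile (3.84 to 3.90), while Sox10 lay between 6.12 and 6.46. Mitf lay between 6.17 and 8.15 (change −0.76, limma adjusted p = 0.343) and Pmel between 5.25 and 5.43 (0.01). Of 10 melanocyte genes 0 rose and 1 fell (Gpnmb, which lay between 6.75 and 10.58). Krt14, a basal keratin, was the 1 called gene of 5 keratinocyte markers (4.67, 4.47 and 4.50 in − dox against 8.21, 7.68 and 8.77 in + dox arrays). The summed log2 level of these 5 genes, which is not an abundance, ran from 26.81 to 27.84 with doxycycline and from 22.72 to 23.79 without it. Krt14 alone changed by 3.67 in that sum. Krt5 had −0.05, Krt1 0.07, Krt10 0.55 and Trp63 −0.15. Fibroblast (7), immune (5) and endothelial (5) markers had 0 calls by limma. Of them 2, 1 and 1 had an unadjusted p under 0.05, against 21.7% of all genes. Their summed levels were 36.59 to 38.11, 24.25 to 27.20 and 22.32 to 24.74 in + dox, against 36.77 to 38.58, 22.57 to 25.17 and 20.36 to 21.61 in − dox arrays. Single genes weighed heavily in these sums. Fibroblast Col3a1 had −1.35 and Dcn 0.85, both without overlap and in opposite directions, and the rest had −0.10 to 0.04. Endothelial Tek had 7.01, 4.58 and 4.49 in + dox against 3.87, 3.80 and 3.58 in − dox arrays, and the rest had changes of 0.00 to 0.30. Of the immune genes, Cd68 had 1.24, although − dox 1 was its highest array (7.14). Itgam had 1.17 (3.51, 3.95 and 5.84 in + dox arrays), and the rest −0.50 to 0.11. Every label names 4434 cells. Whether other cells were present, or had a part in the results below, was not tested.

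Partially reprogrammed cells carried more mRNA of Bhlhe40, Ndrg1 and Slc16a1 and less of Ldhb and Pfkm. These 5 of 42 members (11.9%, against 4.87% of all genes) were called, 3 higher and 2 lower. Members and the other gene lists were chosen with earlier results of these data known, so such shares are descriptions. Most main-line glycolytic enzymes did not pass the test, and in 7 of the 22 glycolytic genes a single array, − dox 1, lay at least 0.5 under the other − dox arrays. The median change was 0.35 over the glycolytic genes and 0.27 over the hypoxic genes, against 0.01 over all genes tested. Without − dox 1 the glycolytic median was 0.12 and the hypoxic median 0.23. With 1 array left out, 7 members were called without + dox 1 (9.07% of all genes), 6 without − dox 1 (6.27%), and only Bhlhe40 without + dox 2 (0.934%), + dox 3 (0.863%), − dox 2 (0.665%) or − dox 3 (0.654%). In bulk RNA, fewer cells of a type and less RNA per cell cannot be told apart.

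Of the transporters, Slc16a1, which moves lactate and pyruvate across the plasma membrane with protons, was higher in + dox cells. It stood at 11.95, 11.73 and 11.96 in the + dox and at 11.26, 11.28 and 11.42 in the − dox arrays. The groups did not overlap, and the rise was 0.56 (SE 0.11, 1.47-fold, limma adjusted p = 0.0403). The call was lost whichever array was left out, with adjusted p values from 0.0591 to 0.152 and changes from 0.52 to 0.64. The related exporter Slc16a3, typical of highly glycolytic cells, lay between 4.48 and 4.91 in every array, and its change was 0.10 (95% confidence interval −0.23 to 0.42).

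Glucose uptake genes were not called. Slc2a1, the widespread glucose transporter, had 10.99, 10.96 and 10.82 in + dox against 10.85, 11.56 and 11.19 in − dox arrays. Its values overlapped, with a change of −0.28 (interval −0.72 to 0.16), and its other probe sets had −0.13 and −0.19. Slc2a3, a high-affinity glucose transporter, reached 6.23 in + dox 3 against 4.34 and 4.76 in the other + dox arrays and 4.19 to 4.39 in − dox arrays. Its change of 0.81 (adjusted p = 0.378) rested on + dox 3, without which it was 0.25.

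**Figure D1:**
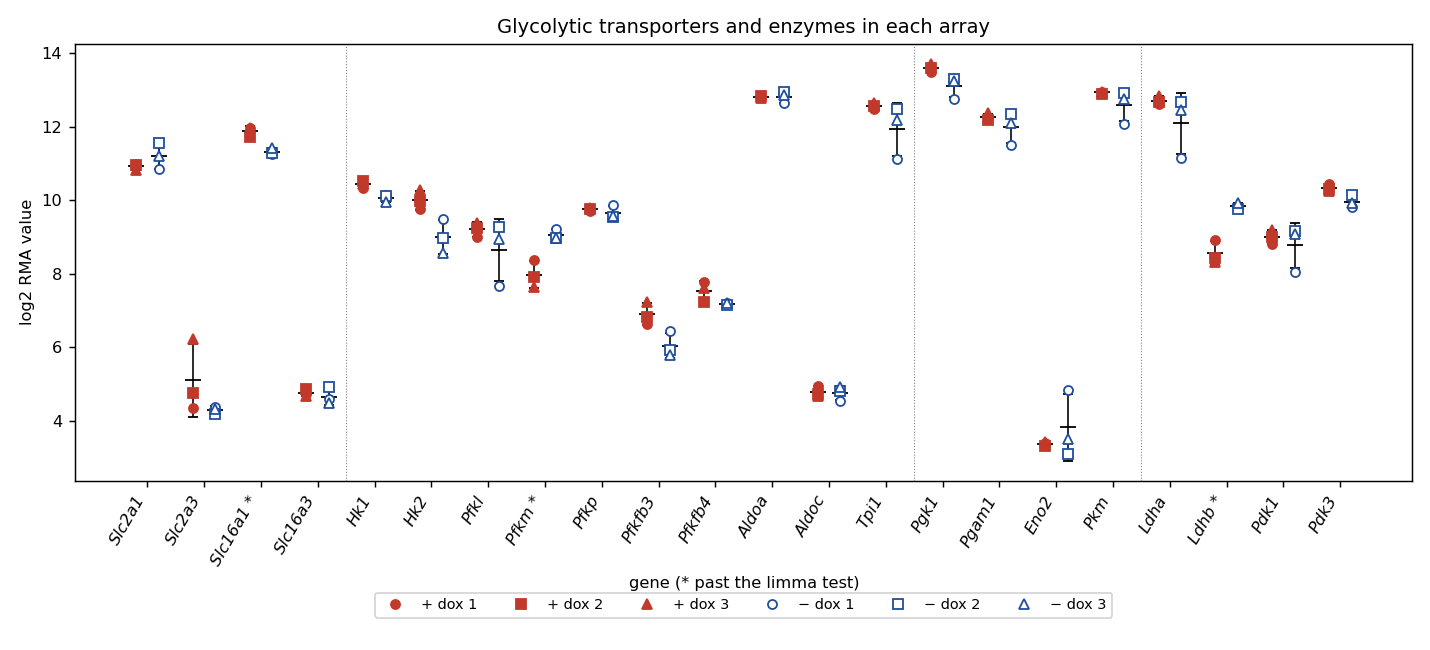
The vertical axis gives the log2 RMA value of the 22 tested glycolytic transporters and enzymes (horizontal axis, in pathway order, dotted lines between transporters, upper glycolysis, lower glycolysis and pyruvate and lactate enzymes). The + dox arrays are filled and red, the − dox arrays open and blue, and black bars give the mean ± SD of 3 arrays. A star marks the 3 called genes. Ldhb and Pfkm lie lower and Slc16a1 higher in all + dox arrays, while − dox 1 (open circle) lies low in Ldha (11.15), Tpi1 (11.11) and Pfkl (7.68). Levels of different genes come from different probes and are not comparable with each other.

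At the head of the pathway, 1 phosphofructokinase gene fell and its isozymes were not called. Phosphofructokinase, the committed step, is built from the products of Pfkl, Pfkm and Pfkp, named after liver, muscle and platelet. Pfkm fell from 9.23, 8.96 and 8.98 in the − dox arrays to 8.37, 7.91 and 7.64 in the + dox arrays. All + dox values lay under all − dox values, by 1.08 on the mean (change −1.08, SE 0.20, adjusted p = 0.0349). This call held without + dox 1 (change −1.28, adjusted p = 0.00753) and was lost when any other array was left out, with changes from −1.13 to −0.92 and adjusted p values from 0.0504 to 0.134. Pfkl stood at 8.99, 9.25 and 9.39 in + dox against 7.68, 9.28 and 8.94 in − dox arrays, so − dox 1 alone lay apart. Its change of 0.58 (adjusted p = 0.475) was 0.10 without that array. Pfkp had a change of 0.11 (interval −0.18 to 0.39), with overlapping groups.

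The hexokinase genes of the set, Hk1 and Hk2, were higher in all + dox arrays but were not called. Hexokinase genes measured outside the set overlapped between the groups. Hk2, the inducible hexokinase of muscle and tumours, stood at 9.75, 9.97 and 10.27 in + dox against 9.48, 8.98 and 8.56 in − dox arrays. The change was 0.99 (interval 0.39 to 1.59, adjusted p = 0.0793). Without − dox 1 it was 1.23 and passed (adjusted p = 0.0249). Hk1, the housekeeping hexokinase, had 10.32, 10.51 and 10.45 against 10.15, 10.11 and 9.94. Its change was 0.36 (adjusted p = 0.109), and its other probe set had 0.33.

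A like pattern was seen in Pfkfb3, whose enzyme makes the phosphofructokinase activator fructose 2,6-bisphosphate. It stood at 6.64, 6.82 and 7.23 in + dox against 6.44, 5.92 and 5.79 in − dox arrays. The values of the groups did not overlap, with a change of 0.85 (interval 0.32 to 1.38, adjusted p = 0.0848), and the gene passed without − dox 1 (1.04, adjusted p = 0.0319). A dimmer probe set of Pfkfb3 had 0.12. Pfkfb4, a related enzyme, had 7.77, 7.24 and 7.62 against 7.20, 7.14 and 7.20 (0.36, adjusted p = 0.221). Altogether 5 of the 10 tested genes of upper glycolysis had groups that did not overlap (50%, against 26.9% of all genes), 4 of them higher in + dox cells.

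The enzymes that handle 3-carbon sugars were not called. Aldoa, the main aldolase, stood at 12.80, 12.82 and 12.77 in + dox against 12.63, 12.93 and 12.87 in − dox arrays (−0.01, interval −0.27 to 0.25). Tpi1, triosephosphate isomerase, had 12.47, 12.57 and 12.63 against 11.11, 12.49 and 12.17. Only − dox 1 lay far off there, and without it the change of 0.63 was 0.23. Pgk1, which makes the first ATP of the pathway, stood at 13.47, 13.60 and 13.70 against 12.75, 13.28 and 13.25. Its groups did not overlap, and the change was 0.50 with that array (adjusted p = 0.144) and 0.32 (adjusted p = 0.143) without it.

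Further down, Pgam1, phosphoglycerate mutase, had a change of 0.27 and Pkm, pyruvate kinase, one of 0.35. Pkm lay between 12.89 and 12.95 in all + dox arrays, at 12.91 and 12.75 in − dox 2 and 3, and at 12.08 in − dox 1. Without − dox 1 these changes were 0.03 and 0.10. Aldoc, a brain aldolase, lay between 4.55 and 4.96 in every array. Eno2, the neuronal enolase, was below each array's lower quartile in 5 arrays (3.11 to 3.52) and at 4.84 in − dox 1. Gapdh, the usual loading control, differed by 0.03 to 0.06 between the groups over its 3 control probe sets. Those were also lowest in − dox 1, at 13.26 to 13.40 against 13.57 to 13.83 in the other 5 arrays. The difference between its 3′ and 5′ control probe sets, a sign of RNA integrity, lay between −0.14 and 0.00 in all arrays, with −0.14 in − dox 1.

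At the fate of pyruvate, lactate dehydrogenase gave the glycolytic gene with the lowest adjusted p, Ldhb. The enzyme is a tetramer of Ldha chains, which favour making lactate, and Ldhb chains, which favour using it. Ldhb stood at 8.93, 8.43 and 8.32 in the + dox arrays and at 9.81, 9.77 and 9.93 in the − dox arrays. Every + dox value was lower, and the change was −1.28 (SE 0.17, 2.42-fold lower, adjusted p = 0.0158). The other 3 probe sets of Ldhb had −1.72, −1.86 and −2.05, all past the test over probe sets (adjusted p = 0.0419, 0.0383 and 0.0314). Without + dox 1 the change was −1.46 (adjusted p = 0.00214), and without − dox 1 the call also held. It was lost without + dox 2, + dox 3, − dox 2 or − dox 3, with adjusted p values of 0.0640 to 0.0812 and changes of −1.31 to −1.16.

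Ldha itself was not called. Its values were 12.60, 12.67 and 12.83 in + dox against 11.15, 12.67 and 12.44 in − dox arrays. Array − dox 1 lay 1.29 under the lower of the other − dox arrays, and the change of 0.61 (interval −0.30 to 1.53) was 0.14 without it. Pdk1 and Pdk3 encode kinases that switch off pyruvate dehydrogenase and so keep pyruvate out of the mitochondrion. Pdk1 had 8.80, 9.01 and 9.19 against 8.06, 9.17 and 9.08, again with − dox 1 alone apart. Its change was 0.23, or −0.12 without that array. The other Pdk1 probe sets had 0.30, 0.38 and, at a dim level, 0.18 with all arrays. In the one with 0.38 and the dim one the groups did not overlap. Pdk3 was higher in all + dox arrays, at 10.43, 10.31 and 10.24 against 9.82, 10.13 and 9.93 (0.37, adjusted p = 0.130).

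**Figure D2:**
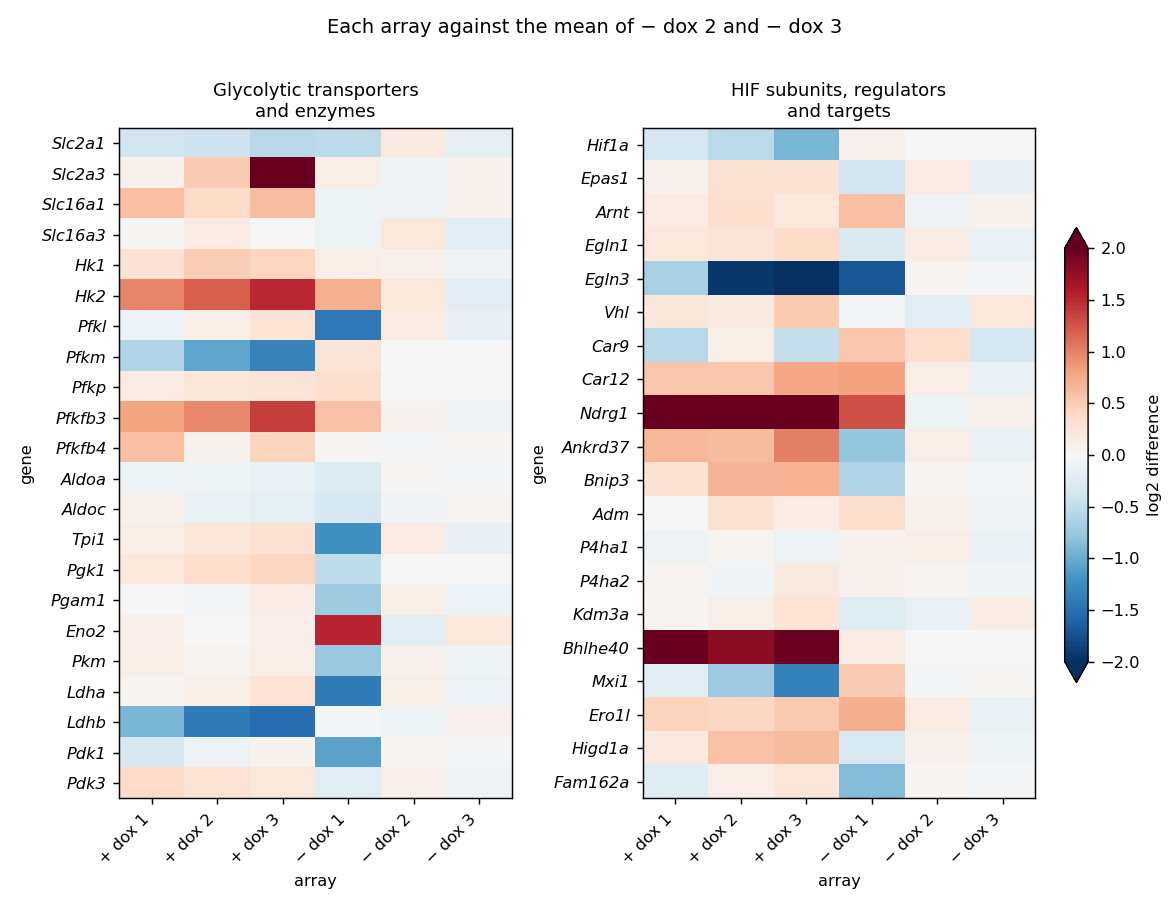
Log2 difference (colour, limited to −2 to 2) of each array (columns) from the mean of − dox 2 and − dox 3 for each tested member (rows), in the order of the text. The − dox 1 column is blue for Ldha, Pfkl, Tpi1, Pdk1, Pkm, Pgam1 and Pgk1 and for Egln3, Fam162a, Ankrd37 and Bnip3, and red for Eno2 and Ndrg1; rows such as Bhlhe40 and Ldhb differ between the groups and not within the − dox arrays.

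The − dox arrays were thus not alike in these genes. Array − dox 1 was the sole lowest of the 6 arrays in 11 of 22 glycolytic genes (50%) and in 7 of 20 hypoxic genes (35%), against 24% of all genes tested. It was the sole highest in 3 of the 22 glycolytic genes (13.6%) and in 7 of the 20 hypoxic genes (35%), against 23.1% of all genes. It lay at least 0.5 under both other − dox arrays in 7 glycolytic genes (Ldha, Pfkl, Tpi1, Pdk1, Pkm, Pgam1 and Pgk1) and in 4 hypoxic genes (Egln3, Fam162a, Ankrd37 and Bnip3). This was 31.8% and 20% of the tested members, against 6.32% of all genes. It lay as far above them in 3 glycolytic and 4 hypoxic genes (13.6% and 20%, against 9.17% of all genes), with Eno2 and Ndrg1 the farthest. These limits were chosen after the values were seen and are a description. What set this array apart was not tested.

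Among the HIF subunits and regulators 0 of 6 passed the limma test, and 2 had an unadjusted p under 0.05 (against 21.7% of all genes). Hif1a, the oxygen-labile subunit, was lower in all + dox arrays, at 11.75, 11.57 and 11.19 against 12.19, 12.12 and 12.09. The change was −0.63 (interval −0.999 to −0.261, adjusted p = 0.0718), and −0.75 (adjusted p = 0.0343) without + dox 1. Its other probe sets had −0.68, −0.90 and, at a dim level, −0.04. Epas1, the gene of HIF-2α, stood at 5.53, 5.75 and 5.73 against 5.07, 5.60 and 5.28 (0.35, adjusted p = 0.254), and its other probe set had 0.00. Arnt, the partner of both, had a change of 0.03 (interval −0.40 to 0.46), and 1 of its 4 other probe sets had 0.53.

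The oxygen sensors were not called. Egln1, the main HIF prolyl hydroxylase in normal air, had 9.39, 9.44 and 9.54 in + dox against 8.89, 9.33 and 9.02 in − dox arrays, without overlap (0.38, adjusted p = 0.169). Its other probe set had 0.32, with overlap. Egln3, a hydroxylase that HIF itself induces, had 9.60, 8.33 and 8.24 against 8.54, 10.30 and 10.21. The arrays numbered 1 stood against the rest of both groups there: + dox 1 was high among the + dox arrays and − dox 1 low among the − dox arrays. With all arrays the change was −0.96 (adjusted p = 0.398). Without both arrays numbered 1 it was −1.97 (SE 0.11, limma adjusted p = 0.000178, against an SE of 0.57 with all arrays). Those arrays were picked out in these same values, so their removal narrows the spread by itself and that p-value is a description. The second Egln3 probe set had −1.27 with all arrays. Vhl had 8.30, 8.25 and 8.59 against 8.03, 7.86 and 8.28, which overlapped (0.32, adjusted p = 0.280). The groups did not overlap in its other probe set (0.38, not past the test over probe sets).

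**Figure D3:**
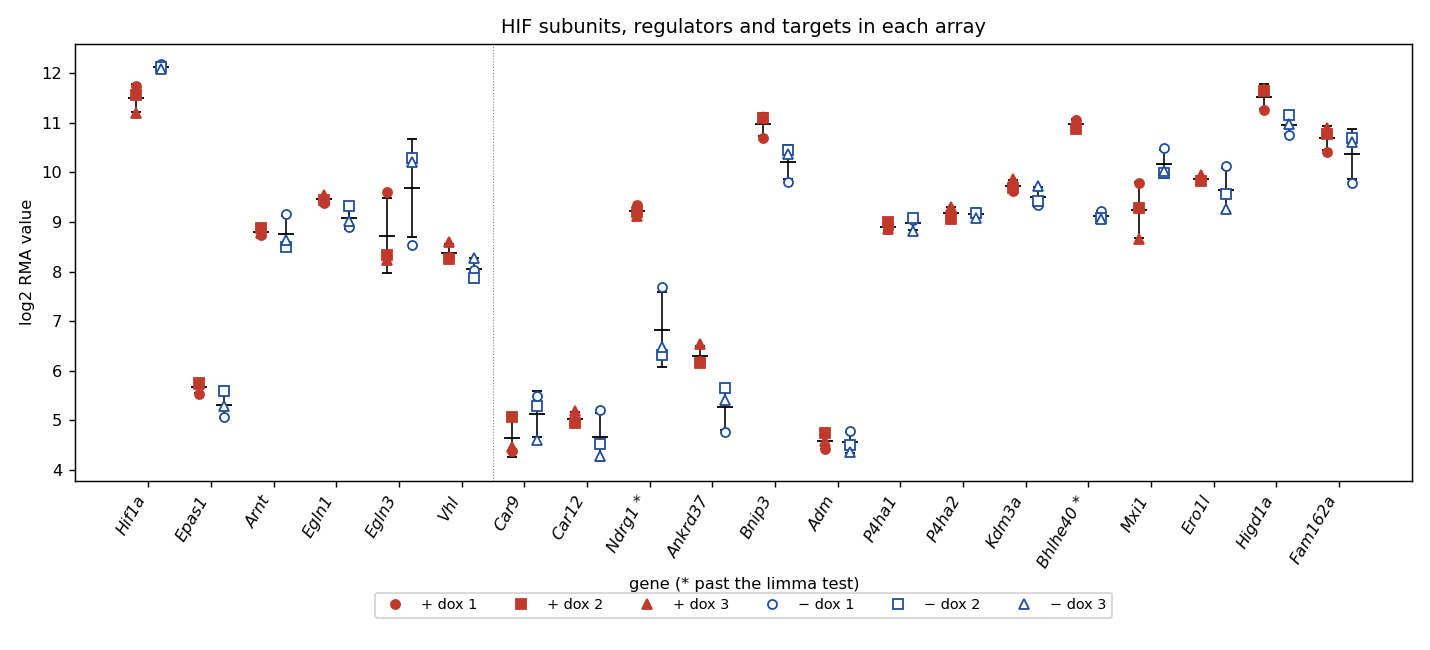
The vertical axis gives the log2 RMA value of the 20 tested HIF subunits, regulators and targets (horizontal axis, dotted line between regulators and targets), with symbols as for the glycolytic genes and black bars for mean ± SD of 3 arrays. All + dox arrays of Bhlhe40 lie at 10.87 or above and its − dox arrays at 9.23 or below, Ndrg1 is higher in all + dox arrays with − dox 1 (7.69) above the other − dox arrays, and Egln3 spreads widely in both groups.

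HIF target genes held the largest rises of the set. Bhlhe40, a repressor of the clock and of differentiation genes that is induced by low oxygen and many other signals, stood at 11.05, 10.87 and 11.03 in the + dox and at 9.23, 9.08 and 9.07 in the − dox arrays. The groups lay far apart relative to their spread, and the rise was 1.86 (SE 0.10, 3.62-fold, adjusted p = 0.00051). It was the 1 member of the 42 whose call held whichever array was left out, with changes of 1.82 to 1.91 and adjusted p values up to 0.00804.

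Ndrg1, a stress-induced gene that restrains growth and metastasis in several tumours, stood at 9.34, 9.20 and 9.13 in + dox against 7.69, 6.32 and 6.48 in − dox arrays. All + dox values were higher, although − dox 1 lay 1.21 above the higher of the other − dox arrays. The rise was 2.39 (SE 0.35, 5.25-fold, adjusted p = 0.0198). All 4 other probe sets of Ndrg1 passed the test over probe sets as well, with 1.24, 2.06, 2.55 and 2.62. Its call held without + dox 1 or − dox 1 (2.82 and adjusted p = 0.000332 without the latter). It was lost without + dox 2, + dox 3, − dox 2 or − dox 3, with adjusted p values of 0.0725 to 0.0896 and changes of 2.14 to 2.44.

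Mitochondrial targets had positive changes that did not pass. Bnip3, a receptor for the removal of mitochondria, stood at 10.70, 11.09 and 11.11 in + dox against 9.81, 10.45 and 10.37 in − dox arrays. The groups did not overlap (0.76, interval 0.26 to 1.25, adjusted p = 0.0919). Higd1a, a small protein of the mitochondrial inner membrane, had 11.25, 11.65 and 11.69 against 10.76, 11.15 and 10.97 (0.57, adjusted p = 0.103), and passed without + dox 1 (0.71, adjusted p = 0.0398). Fam162a, also mitochondrial, had 0.33, and 0.04 without − dox 1. Ankrd37, an ankyrin repeat gene widely used as a marker of HIF activity, had 6.20, 6.16 and 6.53 against 4.76, 5.66 and 5.40. Its values did not overlap either, with a change of 1.02 (interval 0.44 to 1.60, adjusted p = 0.0655), and without − dox 1 it passed with 0.77 (adjusted p = 0.0449).

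Mxi1, an antagonist of Myc, was lower in all + dox arrays, at 9.78, 9.28 and 8.65 in + dox against 10.50, 9.98 and 10.02 in − dox arrays. The change was −0.93 (adjusted p = 0.134), and −1.20 (adjusted p = 0.0446) without + dox 1. The carbonic anhydrases that buffer tumour pH were dim and overlapped between the groups. Car9, usually among the most oxygen-responsive genes, lay between 4.38 and 5.48 in the 6 arrays (−0.48, adjusted p = 0.386), and Car12 between 4.27 and 5.21 (0.36, adjusted p = 0.463). The peptide hormone gene Adm lay between 4.37 and 4.79 (0.03, interval −0.32 to 0.38).

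The remaining targets had overlapping groups and small changes. P4ha1 and P4ha2, collagen prolyl hydroxylases, had −0.08 (interval −0.34 to 0.19) and 0.03 (interval −0.21 to 0.27). The histone demethylase gene Kdm3a had 0.22 (interval −0.10 to 0.55). Ero1l, which oxidises thiols in the endoplasmic reticulum, had 0.22 (interval −0.30 to 0.74). In all, 2 of 14 tested HIF targets were called (14.3%, both higher, against 4.87% of all genes). The groups did not overlap in 6 of the 14 (42.9%, against 26.9% of all genes), and 5 of these were higher. Of the 2 markers named for the set, both had higher values in all + dox arrays, and Ndrg1 passed the test with all 6 arrays (adjusted p = 0.0198 against 0.0655 for Ankrd37). The difference between them was not tested.

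**Figure D4:**
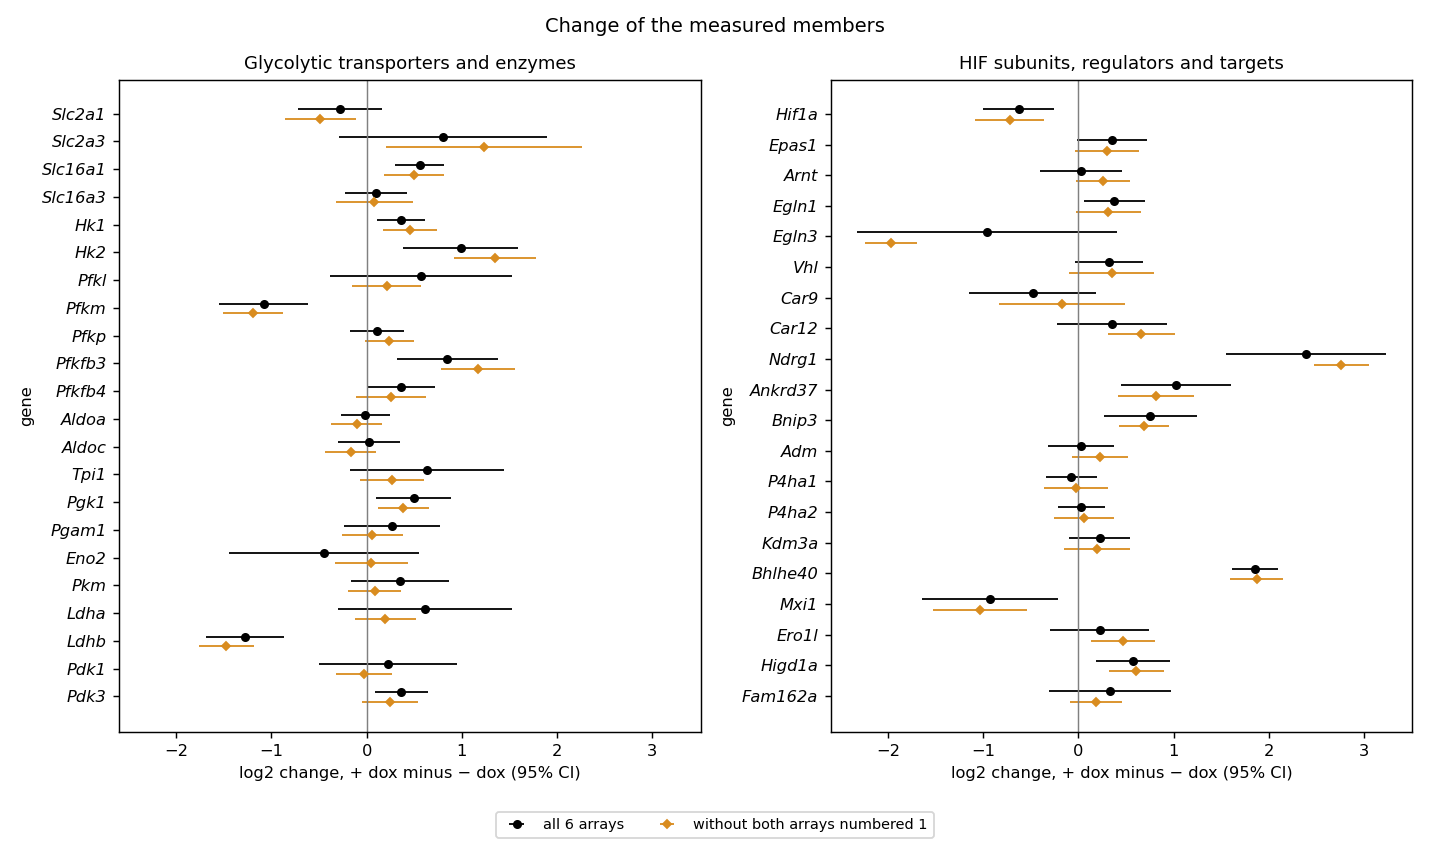
Log2 change (horizontal axis, + dox minus − dox, with 95% confidence interval of the limma fit) of each tested member (vertical axis), for all 6 arrays (black circles) and without both arrays numbered 1 (orange diamonds). Without these arrays Ldha, Tpi1, Pfkl and Pdk1 lie between −0.03 and 0.27, whereas Hk2 (1.35), Pfkfb3 (1.17), Egln3 (−1.97) and Ndrg1 (2.77) lie farther from 0.

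More members were called without both arrays that stood apart, as were more of all genes (20.1%, against 4.87% with all 6 arrays). The arrays were chosen from these same values, so the calls and limma p-values of this fit are a description. With 2 arrays per group limma called 6 glycolytic genes, Slc16a1, Hk1, Hk2 and Pfkfb3 higher and Pfkm and Ldhb lower (6 of 22, against 20.1% of all genes). Hk2 had 1.35 (adjusted p = 0.00391), Pfkfb3 1.17 (adjusted p = 0.00445), Ldhb −1.48 (adjusted p = 0.000639) and Pfkm −1.20 (adjusted p = 0.00191). Of the hypoxic genes 9 of 20 were called, against the same 20.1% of all genes. Ndrg1 (2.77), Bhlhe40 (1.88), Ankrd37 (0.81), Bnip3 (0.69), Car12 (0.66) and Higd1a (0.61) were higher, and Egln3 (−1.97), Mxi1 (−1.03) and Hif1a (−0.72) lower. Ldha (0.20), Pkm (0.08), Pgam1 (0.06), Aldoa (−0.11) and Tpi1 (0.27) were not called in that fit either. The lowest adjusted p of these 5 was 0.259, for Tpi1.

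Promoter sequences show how widely the letters of the HIF recognition core occur in the set. The core ACGTG or GCGTG was searched on both strands in the 250 bases before each transcription start of the RefSeq table (build GRCm38.p6), which held windows for 41 of the 46 members. ACGTG lies within the E-box CACGTG, the site of Bhlhe40 and Mxi1 themselves, so the 2 searches overlap there. At least 1 window with a core was found for 36 of the 41 genes, 21 of 24 glycolytic and 15 of 17 hypoxic. Counted over windows, 77.6% of 58 member windows held it, against 38.6% of all 32851 windows and 44.0% of those of protein-coding genes. A match is a description and not a bound site. The members were listed as glycolytic genes and HIF targets, so a higher share of HIF cores is partly built into the list. Both cores also contain CG, and the windows compared were not matched for base composition. The difference between these shares was not tested. Bhlhe40, Ndrg1, Slc2a3, Epas1 and Bnip3l had no window in the table.

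The following stretches, each the 250 bases before the start on the gene's strand, are shown for the called genes Slc16a1 and Ldhb, for Ldha beside Ldhb, and for Ankrd37, Bnip3 and Egln3 as HIF targets with changes of different sign. Where a gene has several starts, the first in the table is shown. Pfkm was also called, has starts with and without a core, and is not shown. Capitals mark every ACGTG or GCGTG on either strand.
Slc16a1, chr3:104638414-104638663, plus strand: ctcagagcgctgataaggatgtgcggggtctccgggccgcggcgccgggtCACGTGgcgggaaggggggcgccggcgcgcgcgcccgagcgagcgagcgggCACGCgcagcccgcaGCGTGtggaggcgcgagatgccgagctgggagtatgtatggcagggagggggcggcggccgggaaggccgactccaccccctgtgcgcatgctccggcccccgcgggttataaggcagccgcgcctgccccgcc
Ldhb, chr6:142507958-142508207, minus strand: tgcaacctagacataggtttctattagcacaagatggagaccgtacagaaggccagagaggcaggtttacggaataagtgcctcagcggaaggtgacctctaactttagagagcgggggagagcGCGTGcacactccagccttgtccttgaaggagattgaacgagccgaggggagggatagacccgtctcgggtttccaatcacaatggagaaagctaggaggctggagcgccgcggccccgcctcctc
Ldha, chr7:46845554-46845803, plus strand: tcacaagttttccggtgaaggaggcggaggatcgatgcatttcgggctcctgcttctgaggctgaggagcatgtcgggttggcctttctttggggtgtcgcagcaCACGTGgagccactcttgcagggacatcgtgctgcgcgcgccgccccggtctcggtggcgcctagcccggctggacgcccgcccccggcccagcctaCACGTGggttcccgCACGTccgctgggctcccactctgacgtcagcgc
Ankrd37, chr8:45999851-46000100, minus strand: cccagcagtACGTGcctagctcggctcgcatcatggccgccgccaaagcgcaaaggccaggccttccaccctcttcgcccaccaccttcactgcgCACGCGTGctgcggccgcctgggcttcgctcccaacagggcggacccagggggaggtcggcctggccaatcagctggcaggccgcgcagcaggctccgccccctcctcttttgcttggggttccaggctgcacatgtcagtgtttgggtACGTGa
Bnip3, chr7:138909507-138909756, minus strand: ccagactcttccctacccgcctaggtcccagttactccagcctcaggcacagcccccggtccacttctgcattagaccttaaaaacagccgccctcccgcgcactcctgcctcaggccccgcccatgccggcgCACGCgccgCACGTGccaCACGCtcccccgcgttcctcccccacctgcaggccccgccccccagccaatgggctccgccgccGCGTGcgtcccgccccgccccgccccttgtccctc
Egln3, chr12:54203875-54204124, minus strand: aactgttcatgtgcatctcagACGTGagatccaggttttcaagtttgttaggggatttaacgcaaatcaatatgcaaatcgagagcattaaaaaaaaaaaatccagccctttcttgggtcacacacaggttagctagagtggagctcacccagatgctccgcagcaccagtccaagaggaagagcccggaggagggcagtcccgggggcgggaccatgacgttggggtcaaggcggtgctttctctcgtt
Ldha carried CACGTG at 2 places, with its first base 145 and 48 bases before the start, and a further core at 34. Ldhb carried 1 GCGTG, 126 bases before the start. Slc16a1 had an E-box with its first base 200 bases before the start, and Bnip3 had 1 at 108. In Ankrd37, which was higher in all + dox arrays, cores lay between 241 and 6 bases before the start, and in Egln3, which was lower in + dox 2 and 3 than in − dox 2 and 3, the 1 core lay at 229. These 6 genes were picked for display, so their cores bear no comparison.

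Other genes of the same pathways gave calls in both directions. Of 35 measured genes around glycolysis 1 rose and 2 fell (8.57%, against 4.87% of all genes). Tigar, which lowers fructose 2,6-bisphosphate, stood at 7.38, 7.78 and 7.78 in + dox against 6.97, 6.70 and 6.62 in − dox arrays (0.88, adjusted p = 0.0325). Eno3, the muscle enolase, had 9.52, 8.22 and 8.17 against 10.14, 10.56 and 10.75 (−1.85, adjusted p = 0.0479). Tkt, transketolase of the pentose phosphate pathway, had 11.78, 11.70 and 11.56 against 12.56, 12.27 and 12.22 (−0.67, adjusted p = 0.0386). In each of these genes the groups did not overlap. These calls were lost with some arrays left out, with adjusted p values of up to 0.131 for Tigar, 0.168 for Eno3 and 0.144 for Tkt.

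Of 46 other measured hypoxia genes 6 rose and 2 fell (17.4%, against 4.87% of all genes). This list too was made with earlier results of these data known. Tmem45a, a membrane protein gene induced by low oxygen, had 6.93, 5.49 and 6.84 in + dox against 3.81, 3.42 and 3.47 in − dox arrays, the largest change of this list (2.85, adjusted p = 0.0160). Igfbp3, a secreted binding protein of insulin-like growth factors, had 9.99, 9.12 and 8.70 against 6.87, 7.74 and 7.47 (1.91, adjusted p = 0.0406). Edn1, the vasoconstrictor endothelin-1, had 6.07, 5.92 and 6.59 against 4.83, 5.0 and 4.92 (1.28, adjusted p = 0.0182). All 3 were higher in every + dox array. Narf rose by 0.71 (adjusted p = 0.0370). Cited2, which limits HIF by competing for its coactivator, fell by 0.92 (adjusted p = 0.0398), and Gpr146 by 0.70 (adjusted p = 0.0210). The list's median change was 0.00, and each of these 6 calls was lost with at least 1 array left out (highest adjusted p 0.0812 for Tmem45a, 0.133 for Igfbp3, 0.0870 for Edn1, 0.140 for Narf, 0.140 for Cited2 and 0.0921 for Gpr146). Vegfa, the best known HIF target, was not called, at 8.05, 7.59 and 7.25 against 8.98, 8.11 and 7.85 (−0.68, adjusted p = 0.305); it was chosen after its values were seen.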

How the data were processed

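Total RNA of 6 samples (3 + dox, 3 − dox, grouped by their labels) was hybridised to Affymetrix mouse arrays. The deposited values are log2 expression values per probe set, which the authors made with RMA in Chipster; neither its version nor the chip definition file is given in the sources used here. This scale was read from the values, 2.08 to 14.44 over 45101 probe sets. Quantile normalisation within RMA makes values relative to the whole array. The number of arrays limits the precision.

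The 64 array controls were left out. Of the others, 34945 probe sets with 1 gene symbol in the platform annotation were used, and each of 18193 genes was represented by the one with the highest mean. Member genes had 97 such probe sets, 3 of them controls for Gapdh, and 7 more were shared with other genes and not used. The comparison of + dox with − dox arrays used limma 3.58.1 under R 4.3.3 (lmFit, eBayes, two-sided, Benjamini-Hochberg adjustment over all genes, threshold 0.05), which was also run on simulated data. The simulated arrays were independent and held none that stood apart, so that run does not cover the spread seen here. With an array left out, each gene's probe set stayed the same. Members and lists were chosen with earlier results of these data known. Every member could be named; of the other pathway lists, up to 6 called genes with the largest change were. Alternatives covered the replicate block, probe set choice, dim filters, variance model, normalisation, thresholds and left-out arrays. Promoter windows came from RefSeq (GRCm38.p6).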

Additional observations from a re-analysis of the deposited data

How the results depend on the processing

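Of the 5 called members, Bhlhe40 passed whichever array was left out, and the other 4 lost their call without at least 1 array. Leaving out 1 array gave 0 to 3 glycolytic, 1 to 5 hypoxic, 0 to 16 other pathway and 119 to 1650 calls over all genes. Without both arrays numbered 1 these were 6, 9, 30 and 3658, at an adjusted p under 0.01 they were 0, 1, 0 and 128, and at an unadjusted p under 0.05 they were 9, 8, 32 and 3942. With probe sets averaged, 7 other pathway genes were called. With the replicate number as a block the counts were 0, 2, 1 and 303; same-numbered arrays did not deviate together (correlation over genes −0.12, −0.22 and 0.08), and the shared numbers were therefore treated as names. Averaging probe sets (adjusted p = 0.0715) or choosing by variance (adjusted p = 0.05001) also ended the call of Slc16a1. The median change kept its sign in every setting (0.12 to 0.44 glycolytic, 0.16 to 0.32 hypoxic).

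The sign turned in some settings for 10 members, none of them called. Aldoc had −0.105 with probe sets averaged, −0.237 with its more variable probe set and −0.165 without both arrays numbered 1. In that last fit Eno2 had 0.05 and Pdk1 −0.025. Adm had −0.00667 with probe sets averaged, and Ero1l −0.0267 with its most variable probe set. Other probe sets had −0.02 for Slc2a3, 0.0633 for Aldoa, −0.0233 for Arnt, −0.0467 and −0.113 for Car12 and −0.0433 for Adm. With 1 array left out, changes ranged from −0.103 to 0.0467 for Aldoa, −0.08 to 0.105 for Aldoc, −0.80 to 0.065 for Eno2, −0.125 to 0.43 for Pdk1, −0.102 to 0.228 for Arnt, −0.0617 to 0.148 for Adm and −0.0317 to 0.0883 for P4ha2. The cause was not tested. Eno2 lay below the lower quartile in 5 arrays, where differences say little.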
